A study of Mus musculus with 24 samples.

Results

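The 3 superoxide dismutase genes Sod1, Sod2 and Sod3, the catalase gene Cat and 2 stress-linked adaptor genes, Osgin1 and Sqstm1, were followed in cultured mouse airway epithelium held under cigarette smoke or air. They were chosen by symbol, and all 6 of them were among the 25239 genes in the authors' table of normalised counts. Superoxide dismutases turn superoxide into hydrogen peroxide, SOD1 mainly in the cytosol, SOD2 in mitochondria and SOD3 outside the cell, and catalase breaks hydrogen peroxide down, largely in peroxisomes. SQSTM1, also called p62, is an autophagy receptor that binds KEAP1, the protein that holds the transcription factor NRF2 in check, and its gene is itself an NRF2 target. OSGIN1 is a stress-induced growth inhibitor whose gene is known as an NRF2 target in human cells, and Sod2 is a well-known NF-kappaB target.

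Tracheal epithelial cells were taken from wild-type animals of the strain FVB/NJ, 7 to 8 weeks old, grown in submerged culture and differentiated for 10 to 14 days with air above the cell layer. The inserts were next kept for 10 days under cigarette smoke, with 2 cigarettes burned over about 8 minutes per exposure, or under humidified air. RNA was sequenced from 4 groups of 6 inserts, female smoke, female air, male smoke and male air, so that smoke can be set against air within each sex. The labels name no donor animals, so the p-values measure the spread between inserts, which may be technical, and the comparison of the sexes includes any other difference between the preparations of cells. Reads assigned to genes ranged from 16038813 to 24485024 in the 23 libraries whose whole counts could be recovered.

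The labels were checked first. Xist, transcribed from the inactive X chromosome, had 3665 to 16401 normalised counts in the 12 female libraries and 1.04 to 10.6 in the 12 male ones, while Ddx3y on the Y chromosome was at 0 in all female libraries. Cyp1a1, a smoke-inducible cytochrome P450, had 28.2 to 284 normalised counts in female smoke against 0.926 to 7.94 in female air, and 59.9 to 829 in male smoke against 4.42 to 11.2 in male air. All 8 genes of a list of airway epithelial markers had a mean normalised count of at least 10. In insert 1 of female air and insert 4 of female smoke the deviation of a gene from its group followed transcript length, with Spearman correlations across genes of -0.655 and -0.418, against -0.138 to 0.324 in the other 22 libraries. In those 2 libraries 5449 and 3475 of 13549 genes lay more than 2-fold from their group, so the female results are also given without them below.

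Promoter sequence is shown for Cat, Osgin1 and Sqstm1, the genes whose level set the female and male cultures apart at high counts. RefSeq entries on GRCm38.p6 were found for 5 of the 6 genes, not for Sod3, and each window of 300 bases holds the 250 bases before the transcription start and the 50 that begin with it. The windows are chr2:103485104-103485403 on the minus strand for Cat, chr8:119436897-119437196 on the plus strand for Osgin1 and chr11:50210771-50211070 on the minus strand for Sqstm1. Capitals mark matches on either strand to the motifs named below.
Cat: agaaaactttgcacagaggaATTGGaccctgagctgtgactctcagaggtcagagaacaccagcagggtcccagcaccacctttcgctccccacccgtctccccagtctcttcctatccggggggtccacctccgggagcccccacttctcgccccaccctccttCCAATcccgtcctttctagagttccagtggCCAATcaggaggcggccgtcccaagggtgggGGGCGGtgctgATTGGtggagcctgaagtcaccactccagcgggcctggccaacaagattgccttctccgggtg
Osgin1: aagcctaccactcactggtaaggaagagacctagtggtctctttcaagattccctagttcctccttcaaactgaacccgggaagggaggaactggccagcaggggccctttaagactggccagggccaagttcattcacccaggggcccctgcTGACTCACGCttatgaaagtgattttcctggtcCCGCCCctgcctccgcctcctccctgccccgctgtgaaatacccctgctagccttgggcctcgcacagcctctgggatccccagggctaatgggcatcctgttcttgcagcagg
Sqstm1: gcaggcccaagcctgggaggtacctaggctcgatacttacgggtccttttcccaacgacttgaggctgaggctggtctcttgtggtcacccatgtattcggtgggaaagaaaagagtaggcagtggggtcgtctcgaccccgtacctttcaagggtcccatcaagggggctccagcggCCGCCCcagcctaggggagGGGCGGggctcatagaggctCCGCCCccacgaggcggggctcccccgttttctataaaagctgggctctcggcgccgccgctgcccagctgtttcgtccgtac
The first motif searched was TGACNNNGC, the core of the antioxidant response element that NRF2 binds. The kappaB motif of NF-kappaB was searched as GGNNTTTCC. The xenobiotic response element core of the aryl hydrocarbon receptor was searched as GCGTG. General promoter motifs were the GC box, searched as GGGCGG, and the CCAAT box, searched by its name's letters. The AP-1 site, searched as TGACTCA, was added after the Osgin1 window had been read. Of all 32851 promoter windows, 12.4% held the antioxidant core, 5.82% the kappaB motif, 32.4% the xenobiotic core, 35.7% the GC box, 37.4% the CCAAT box and 5.2% the AP-1 site. The Cat window held the CCAAT box at 4 positions and 1 GC box, and the Sqstm1 window held 3 GC boxes and no other motif of the set. In the Osgin1 window the AP-1 letters began 97 bases before the start and ran into a xenobiotic core on the other strand, with 1 GC box nearer the start. The antioxidant core matched in the window of Sod1 alone among the 5, as GCGTGGTCA on the strand of the gene, overlapping 1 of its 3 xenobiotic cores. No kappaB match was found in the 5 windows, Sod2 included. A match of letters is a description and not a site of binding, and a missing match says only that these letters are not in this window.

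**Figure D1:**
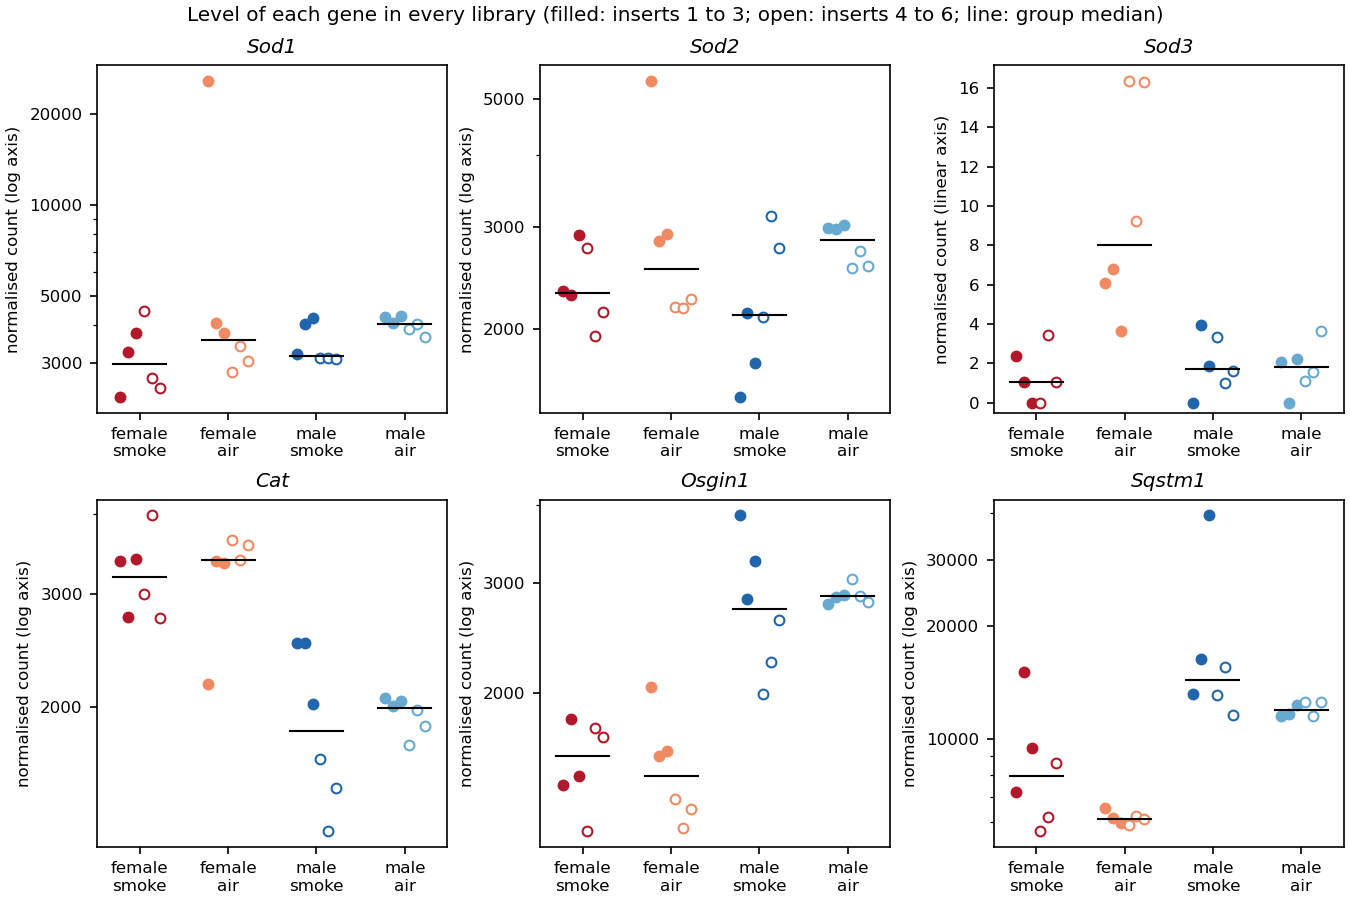
Normalised counts (vertical axes, log scale except for Sod3) of the 6 genes in every library of female smoke, female air, male smoke and male air, 6 inserts each. Filled points are inserts 1 to 3, open points inserts 4 to 6, and lines group medians. By group median, Cat is higher and Osgin1 and Sqstm1 are lower in female than in male libraries, Sod3 is highest in female air, and female air insert 1 stands far above its group for Sod1 at 25766.

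The 6 genes covered a wide range of levels. Per kilobase of exon, averaged over the 24 libraries, Sod1 had 6988 normalised counts and Sqstm1 5548, above 98.9% and 98.5% of the 13549 genes tested. Osgin1 had 1107 per kilobase, Cat 1012 and Sod2 680, above 90.9%, 90% and 84.1% of tested genes. Sod3 had 1.81 per kilobase, near the limit of detection. Its mean of 3.69 normalised counts was below the minimum of 10 set for the test across genes, so 5 of the 6 genes passed that filter, and Sod3 was read from the same fit with no filter, over 20566 genes.

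Smoke against air was the comparison the study was built on, and 0 of the 5 genes that passed the filter were called in either sex. The test was limma on log2 of the normalised count plus 1, with all 4 groups in 1 fit and a call at a Benjamini-Hochberg adjusted p under 0.05. By that rule 34.8% of all tested genes were called in female smoke and 22% in male smoke. At an unadjusted p under 0.05 the count was also 0 of 5 in each sex. Among the 5, DESeq2 on the recovered reads called 0 in each sex of the 4 to which it gave an adjusted p, while edgeR called Sod1 in female smoke and none in male smoke. The shares of all genes at an unadjusted p, by DESeq2 and by edgeR are not given here. Sod3 was called in female smoke alone, where 24% of the genes in the fit without a filter were called, against 14.5% in male smoke.

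Sod3, the extracellular dismutase, lies at chr5:52363804-52369738 on the plus strand of mm10 and has 2 exons. Its normalised counts had a lowest value of 0, a median of 1.04 and a highest of 3.42 in female smoke, against 3.64, 8.04 and 16.3 in female air. Every female smoke library was below every female air library, and 12.5% of tested genes had libraries without overlap in this comparison. The reads behind these values were 7 in all 6 female smoke libraries together, 2 of them at 0, and 55 in the 6 female air libraries, between 4 and 16 each. Sod3 was lower in female smoke by a log2 fold change of -2.27 ± 0.45 (SE, n = 6 per group, limma without a filter, adjusted p = 0.000977). It was -2.16 ± 0.49 without female air insert 1 and female smoke insert 4 (adjusted p = 0.00222, limma). A two-sided exact permutation test of the normalised counts gave p = 0.00216, the smallest that the 924 arrangements of 12 libraries allow, and 0.00866 adjusted over the 4 group comparisons tested this way.

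In male cultures Sod3 was not called. The lowest, median and highest normalised counts were 0, 1.73 and 3.96 in male smoke, against 0, 1.82 and 3.65 in male air, a log2 fold change of 0.06 ± 0.45 with a 95% interval of -0.88 to 0.99 (limma, adjusted p = 0.986). The female response minus the male response was -2.33 ± 0.64, with an unadjusted p of 0.0013 and an adjusted p of 0.0935 (limma), so the difference between the sexes was not called. A pseudocount of 5 or array quality weights, which give less weight to libraries far from their group, brought that adjusted p to 0.0412 and 0.0149. Sod3 averaged 1.77 normalised counts in male air against 9.74 in female air, so a male fall as large as the female one could not be measured. The difference between the responses therefore also holds the difference between female and male air. With inserts 1 to 3 alone the female response was -1.74 ± 0.67 (adjusted p = 0.165, limma).

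Sod3 is also made by fibroblasts and smooth muscle, and a list of 10 marker genes of those cells moved in part with it. The summed normalised counts of the list had a lowest value of 51.8, a median of 175 and a highest of 1269 in female smoke, against 337, 707 and 2247 in female air, and 54.7, 106 and 150 in male smoke against 174, 280 and 434 in male air. Of the 10 genes, Dcn and Acta2 had a mean of at least 10. Acta2, the smooth muscle actin and the most abundant of the list, read -1.57 ± 0.63 in female and -0.22 ± 0.63 in male smoke (limma, adjusted p = 0.0558 and 0.84), and with the 2 length-trend libraries left out it was called in female smoke, at -2.16 ± 0.54 (adjusted p = 0.00354, limma). It was higher in female than in male air by 2.28 ± 0.63 (limma, adjusted p = 0.00596). Dcn, a fibroblast proteoglycan, fell under smoke, with log2 fold changes of -4.52 ± 0.80 in female and -4.37 ± 0.80 in male cultures (limma, adjusted p = 0.00029 and 0.000511). Lum was at 0 in 22 of 24 libraries, Des in 21, Pdgfrb in 16, Col3a1 in 15 and Col1a2 in 6. Dcn was at 0 in 2 libraries, Col1a1 and Pdgfra in 1 each, and Acta2 and Myh11 had counts in all 24. The marker sum was also lower under smoke in male cultures. There Sod3 had 12 reads in the 6 air libraries together, too few for a fall of the female size to show. The sums of 6 endothelial genes had medians of 15.6 in female smoke against 45.3 in female air, and 23.4 in male smoke against 19.0 in male air. Of these genes Cdh5 was at 0 in 23 of 24 libraries, Kdr and Cldn5 in 21 and Tek in 1. Pecam1 and Vwf had counts in all 24. The sums of 8 leukocyte genes, nearly all from Lyz2, had medians of 24030 against 60954 in female cultures and 27714 against 33676 in male cultures. Adgre1 was at 0 in 23 libraries, Cd3e in 15, Cd79a in 9 and Ptprc in 4. Cd68, Itgam, Lyz2 and Csf1r had counts in all 24. The part of such cells in the Sod3 result was not tested, and in bulk RNA fewer cells of a type and less RNA per cell cannot be told apart.

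**Figure D2:**
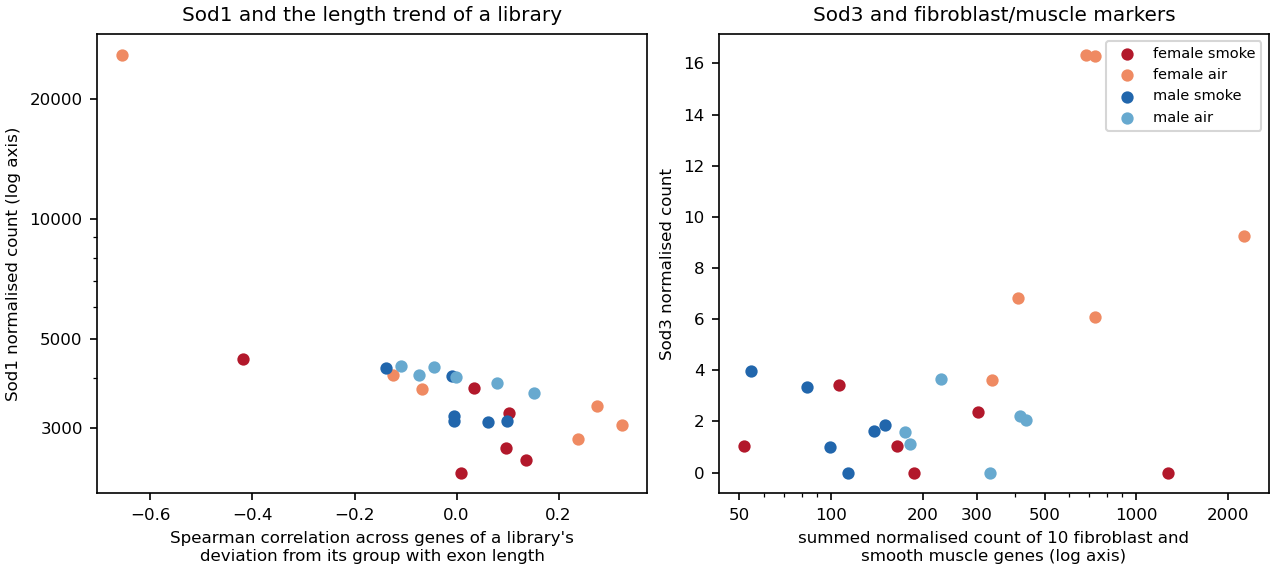
The left panel sets the normalised count of Sod1 (vertical, log scale) against the Spearman correlation of each library's deviation from its group with exon length (horizontal). Female air insert 1 stands alone at -0.655 and 25766 counts. The right panel sets Sod3 against the summed counts of 10 fibroblast and smooth muscle genes (horizontal, log scale), with 5 of the 6 female air libraries above all others in Sod3. Each point is 1 of 24 libraries, coloured by group.

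Sod1, the cytosolic copper and zinc dismutase, lies at chr16:90220762-90226333 on the plus strand and has 5 short exons with 637 bases in all. Its lowest, median and highest normalised counts were 2317, 2964 and 4470 in female smoke, against 2807, 3581 and 25766 in female air. The highest value was female air insert 1, the library with the strong length trend, and the other 5 female air libraries ran from 2807 to 4075, overlapping the smoke libraries. In that insert Sod1 was 7.58-fold above the median of the other 5. Its deviation there was 2.92 on the log2 scale, against a median of 2.22 and quartiles of 1.62 and 2.62 for 153 genes of like length, and 90.2% of those genes deviated less. A processed pseudogene of Sod1, Gm8566, is 97.8% identical over 465 bases and is not in the count table, so where its reads were counted cannot be seen here.

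The Sod1 response to smoke was -0.63 ± 0.35 in female cultures (SE, limma, adjusted p = 0.172), with a 95% interval of -1.35 to 0.09. Without the 2 libraries with a length trend it was -0.25 ± 0.13 (adjusted p = 0.115, limma). With edgeR and all female libraries it was -1.22 with an adjusted p of 0.0314, so both its size and its call differed between these fits. In male cultures the lowest, median and highest normalised counts were 3094, 3158 and 4241 in smoke, against 3665, 4046 and 4294 in air. That gave -0.23 ± 0.35 (adjusted p = 0.686, limma). Fitted on the 12 male libraries alone, the same -0.23 had a standard error of 0.09 and an adjusted p of 0.0477, and with array quality weights it was -0.32 ± 0.10 (adjusted p = 0.00899, limma). Male smoke inserts 4 to 6 and insert 1 were below every male air library, and inserts 2 and 3 were within the air range.

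Sod2, the mitochondrial manganese dismutase, lies at chr17:13007839-13018119 on the plus strand and has 5 exons. It shares stretches of 100 to 249 bases with transcripts of 384 other genes, which leaves some uncertainty in where reads from those stretches were counted. In female cultures its lowest, median and highest normalised counts were 1949, 2309 and 2913 in smoke, against 2175, 2545 and 5369 in air, where the highest was again insert 1. The groups overlapped, with a log2 fold change of -0.23 ± 0.19 (limma, adjusted p = 0.361), and of -0.09 ± 0.15 without the 2 libraries with a length trend (adjusted p = 0.652). In male cultures the counts were 1528, 2118 and 3137 in smoke, against 2556, 2857 and 3029 in air. Male smoke inserts 1 to 4 were below every male air library, and inserts 5 and 6 were not. The male log2 fold change was -0.37 ± 0.19 (limma, adjusted p = 0.165), and with the 2 female libraries left out of the shared fit the same value had a standard error of 0.14 and an adjusted p of 0.0342.

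Cat, the catalase gene, lies at chr2:103453904-103485153 on the minus strand and has 13 exons. In female cultures its lowest, median and highest normalised counts were 2756, 3189 and 3983 in smoke, against 2173, 3385 and 3638 in air. The air group was tight, at 3356 to 3638, apart from insert 1, and the smoke libraries lay on both sides of it. The log2 fold change was -0.01 ± 0.15, with a 95% interval of -0.32 to 0.30 (limma, adjusted p = 0.972), and it was -0.10 ± 0.15 (adjusted p = 0.58) with the 2 length-trend libraries left out. In male cultures the counts were 1279, 1836 and 2517 in smoke, against 1746, 1989 and 2063 in air, with a log2 fold change of -0.07 ± 0.15 and an interval of -0.39 to 0.24 (limma, adjusted p = 0.784). With array quality weights the male value was -0.27 ± 0.09 and called (limma, adjusted p = 0.0177).

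Osgin1 lies at chr8:119437147-119446256 on the plus strand and has 6 exons. Its lowest, median and highest normalised counts were 1202, 1586 and 1820 in female smoke, against 1217, 1470 and 2045 in female air, and the groups overlapped almost wholly. They were 1994, 2725 and 3856 in male smoke, against 2775, 2858 and 3044 in male air. The male smoke libraries spread above and below the narrow air group, with coefficients of variation of 24.3% in smoke and 3.28% in air. The smoke response was 0.05 ± 0.14 in female cultures (95% interval -0.25 to 0.34, limma, adjusted p = 0.828) and -0.07 ± 0.14 in male cultures (-0.36 to 0.22, adjusted p = 0.771). Leaving out the 2 libraries with a length trend gave a female value of 0.21 ± 0.13 (adjusted p = 0.191, limma). With array quality weights Osgin1 was called in opposite directions, at 0.24 ± 0.10 in female and -0.23 ± 0.08 in male smoke (limma, adjusted p = 0.034 and 0.0215), and the difference of 0.47 ± 0.13 was called too (adjusted p = 0.0111).

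Sqstm1, the autophagy receptor, lies at chr11:50200152-50210820 on the minus strand and has 8 exons. A longer GENCODE transcript of it runs over 583 bases of the neighbouring gene Mrnip, while in the deposited refGene annotation no other gene shares exon bases with any of the 6. Its lowest, median and highest normalised counts were 5682, 7938 and 15058 in female smoke, against 5885, 6132 and 6533 in female air. Of the 6 female smoke libraries 4 were above the highest air library, and the other 2 were not. In male cultures the counts were 11605, 14354 and 39378 in smoke, against 11503, 11960 and 12538 in air, and 5 of the 6 male smoke libraries were above the highest air library. The air libraries varied little, with coefficients of variation of 3.71% in female and 4.20% in male air, against 39.3% and 57.9% in female and male smoke.

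The Sqstm1 response was 0.42 ± 0.23 in female cultures (limma, adjusted p = 0.157) and 0.46 ± 0.23 in male cultures (limma, adjusted p = 0.156). The 95% intervals were -0.05 to 0.89 and -0.01 to 0.93, so neither was called. A single library carried much of each value: without female smoke insert 2, at 15058 counts, the female response was 0.25 ± 0.21, and without male smoke insert 3, at 39378, the male response was 0.21 ± 0.17 (limma, adjusted p = 0.395 and 0.441). With array quality weights they were 0.48 ± 0.13 and 0.19 ± 0.11, the female one called at an adjusted p of 0.00406 (limma) and the male one not. Without the 2 libraries with a length trend the values were 0.55 ± 0.24 and 0.46 ± 0.22, with adjusted p of 0.0694 and 0.0929 (limma). In the authors' deposited table, which fits each comparison by itself with DESeq2, the values turned to smoke over air were 0.49 in female cultures with an adjusted p of 0.0767 and 0.56 in male cultures with an adjusted p of 0.0414. The call for the male cultures therefore differed between the deposited table and limma.

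**Figure D3:**
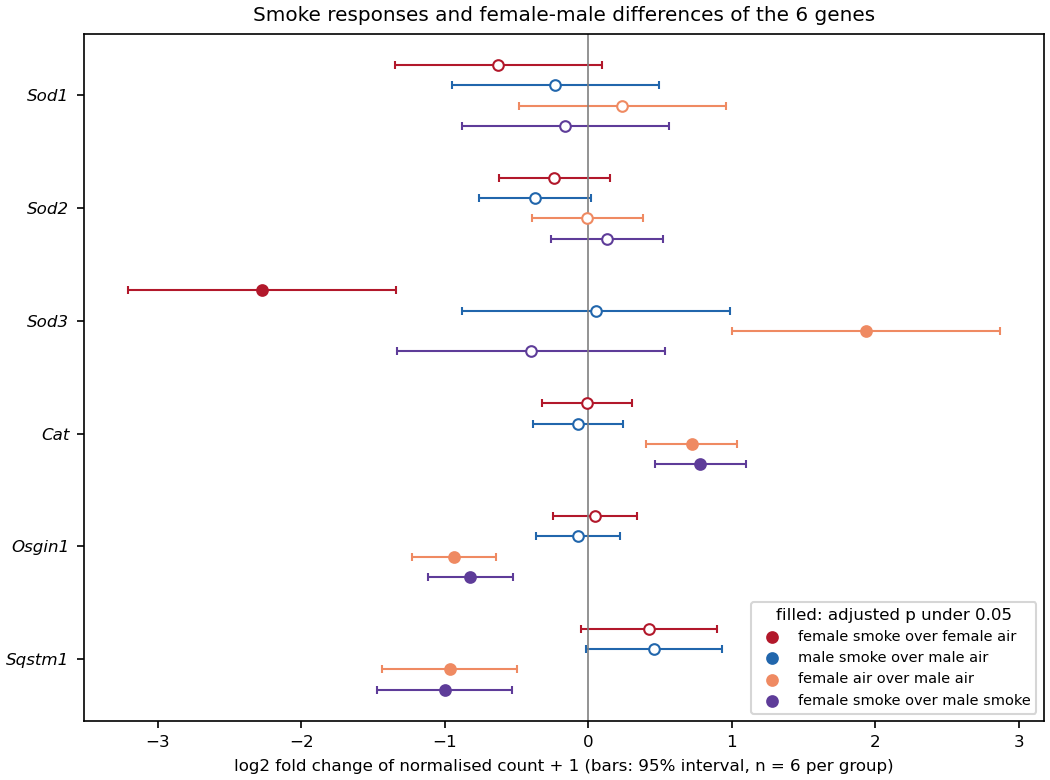
Log2 fold changes (horizontal axis) of the 6 genes (rows) in 4 comparisons of 6 against 6 libraries, with 95% intervals. Filled points have a limma adjusted p under 0.05. Smoke over air is filled for Sod3 in female cultures alone, while female over male is filled for Cat, Osgin1 and Sqstm1 in air and in smoke and for Sod3 in air.

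Levels differed between inserts of a group, and for some genes the spread ran along the insert numbers, in male smoke and also in air. In male smoke, Cat averaged 2349 ± 287 normalised counts in inserts 1 to 3 and 1476 ± 188 in inserts 4 to 6 (SD, n = 3 each). Osgin1 averaged 3313 ± 516 and 2285 ± 315 in these sets, and Sod2 averaged 1804 ± 306 and 2667 ± 524. Sod1 averaged 3826 ± 550 and 3107 ± 11.2. Cat, Osgin1 and Sod1 were thus higher in the first set, with no overlap between sets. Sod2 was lower there on average, and its sets overlapped. The labels give no meaning to the numbers beyond naming the inserts, and the sets were not tested against each other. The share of all tested genes whose sets did not overlap is not given, so the overlaps here and below are a description only.

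In male air the sets lay closer together, but those of Sod1, Sod2 and Cat did not overlap. For each of these genes inserts 1 to 3 were the higher, with Cat at 2004 to 2063 against 1746 to 1975 in male air. There Cat averaged 2036 ± 29.6 in inserts 1 to 3 and 1862 ± 114 in inserts 4 to 6, and Osgin1 averaged 2835 ± 52.9 and 2902 ± 127 (SD, n = 3 each). In female air Osgin1 averaged 1749 ± 257 and 1292 ± 69.4, with every one of inserts 1 to 3 above inserts 4 to 6, and Sod3 averaged 5.51 ± 1.66 and 13.97 ± 4.08. Sod1 and Sod2 were also higher in every one of inserts 1 to 3 of female air, with Sod2 at 2840 to 5369 against 2175 to 2251. Sod3 and Cat were lower there in every one of inserts 1 to 3. Set by set, the male smoke response of Cat was 0.20 ± 0.18 with inserts 1 to 3 and -0.34 ± 0.14 with inserts 4 to 6 (SE, limma, adjusted p = 0.495 and 0.177), and that of Osgin1 was 0.21 ± 0.16 and -0.35 ± 0.14 (adjusted p = 0.387 and 0.188), none of them called. For Sod2 it was -0.75 ± 0.23 (adjusted p = 0.0457, limma) and 0.01 ± 0.15. The values over all inserts near 0 for Cat and Osgin1 in male cultures were thus averages over sets that lay on opposite sides of 0. Sqstm1 kept its sign, with 0.70 ± 0.37 and 0.15 ± 0.15 in female cultures and 0.79 ± 0.37 and 0.13 ± 0.15 in male cultures, both sets of inserts being above 0.

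**Figure D4:**
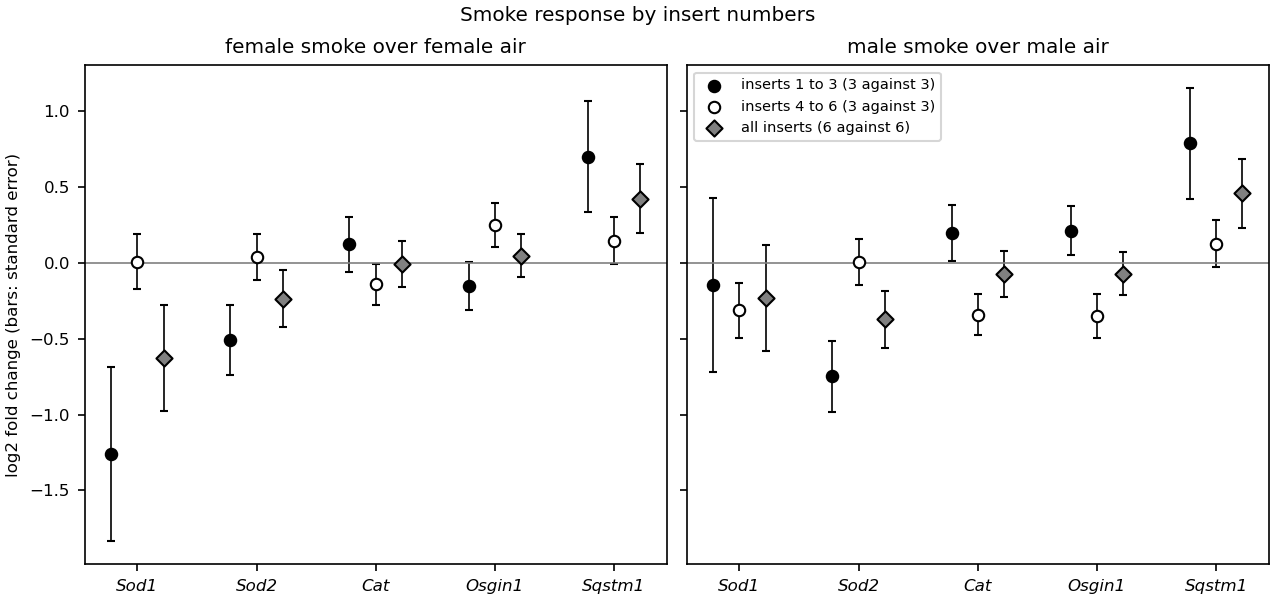
Smoke responses (log2 fold change, vertical axis, bars are standard errors) of 5 genes in female (left) and male (right) cultures with inserts 1 to 3, inserts 4 to 6 and all inserts. In male cultures Cat and Osgin1 are above 0 in the first set and below 0 in the second, and Sod2 is -0.75 in the first and 0.01 in the second.

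The response to smoke was not called as different between the sexes for any of the 6 genes (limma). Of all tested genes 1.03% were called in this comparison, and 0.652% in the fit without a filter. The female response minus the male response was -0.40 ± 0.49 for Sod1, 0.14 ± 0.27 for Sod2, 0.06 ± 0.21 for Cat, 0.12 ± 0.20 for Osgin1 and -0.03 ± 0.32 for Sqstm1. At an unadjusted p under 0.05 the count was 1 of 6, Sod3, edgeR called 0 of 6 and DESeq2 0 of the 5 to which it gave an adjusted p. None of the 6 was called without the 2 length-trend libraries either, with Cat at -0.03 ± 0.20 and Sqstm1 at 0.09 ± 0.33 (limma, adjusted p = 0.939 and 0.901). The 95% interval of the difference ran from -0.70 to 0.63 for Sqstm1 and from -0.38 to 0.51 for Cat.

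Cat, Osgin1 and Sqstm1 were called between female and male cultures under either exposure, and Sod3 under air alone. Without smoke, 4 of the 6 genes were called between female and male cultures, where 39.0% of all tested genes were called, and 28.2% in the fit without a filter that holds Sod3. Under smoke 3 of the 6 were called, where 32.2% of tested genes were called. Without the 2 length-trend libraries the same numbers were called, with female over male values in air of 0.83 for Cat, -1.03 for Osgin1, -0.98 for Sqstm1 and 2.02 for Sod3, and in smoke of 0.80, -0.75 and -0.89 for Cat, Osgin1 and Sqstm1 (limma). More genes at large were called in air without these libraries, 28.3% of tested genes higher and 27.5% lower, against 20% and 19.0% over all libraries. Under smoke at least 25.5% were called in each direction without them. The share in the fit without a filter that holds Sod3 is not given for this setting. The contrasts share groups with the smoke comparisons, so they are not independent of those.

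Cat was higher in female than in male cultures. Under air all 6 female libraries, at 2173 to 3638 normalised counts, were above all 6 male libraries, at 1746 to 2063, and 33.2% of tested genes had no overlap in this comparison. Under smoke the female libraries, at 2756 to 3983, were again above the male ones, at 1279 to 2517, where 17.6% of tested genes had no overlap. The log2 fold change of female over male was 0.72 ± 0.15 in air and 0.78 ± 0.15 in smoke (limma, adjusted p = 0.000611 and 0.000311), that is 1.65-fold and 1.72-fold. With inserts 1 to 3 alone it was 0.52 ± 0.18 in air and 0.44 ± 0.18 in smoke, with adjusted p of 0.0672 and 0.11 (limma).

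Osgin1 was lower in female cultures, with no overlap of libraries under air or smoke. Its libraries lay at 1217 to 2045 normalised counts in female air against 2775 to 3044 in male air, and at 1202 to 1820 in female smoke against 1994 to 3856 in male smoke. The log2 fold change of female over male was -0.94 ± 0.14 in air and -0.82 ± 0.14 in smoke (limma, adjusted p = 1.35e-05 and 8.56e-05). It stayed called with inserts 1 to 3 alone, with inserts 4 to 6 alone and with every single library left out, at values of -1.17 to -0.71 in air.

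Sqstm1 was lower in female cultures by about the same factor. Its libraries lay at 5885 to 6533 normalised counts in female air against 11503 to 12538 in male air, and no library of the one overlapped the other. Under smoke they lay at 5682 to 15058 in female against 11605 to 39378 in male cultures, with overlap. The log2 fold change of female over male was -0.96 ± 0.23 in air and -1.0 ± 0.23 in smoke (limma, adjusted p = 0.00175 and 0.0015), and with inserts 1 to 3 alone it was -0.93 ± 0.37 and -1.01 ± 0.37 with adjusted p of 0.0928 and 0.0689. Smoke-exposed female libraries, with a median of 7938, thus stayed below the lowest male air library in 5 of 6 cases.

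Sod3 was higher in female than in male air, by 1.94 ± 0.45 (limma without a filter, adjusted p = 0.00211), with 55 against 12 reads in the 6 libraries of each. The exact permutation test gave p = 0.00433, or 0.00866 adjusted over 4 comparisons. The groups overlapped by a hair, since female air began at 3.64 normalised counts and male air reached 3.65. With inserts 1 to 3 alone the difference was 1.57 ± 0.67 (limma, adjusted p = 0.14). Under smoke the female over male value was -0.39 ± 0.45 (limma, adjusted p = 0.598).

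Sod1 and Sod2 were not called between female and male cultures by the fit used throughout. For Sod1 the value was 0.24 ± 0.35 in air and -0.16 ± 0.35 in smoke (limma, adjusted p = 0.614 and 0.78). For Sod2 it was -0.01 ± 0.19 and 0.13 ± 0.19 (adjusted p = 0.986 and 0.652, limma). Without the 2 libraries with a length trend Sod1 read -0.25 ± 0.12 in air, below 0, with an adjusted p of 0.0822 (limma). With array quality weights both were called lower in female air, Sod1 at -0.33 ± 0.09 and Sod2 at -0.25 ± 0.09 (limma, adjusted p = 0.00249 and 0.0173).

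Summed markers of ciliated cells, an epithelial cell type, were higher in female than in male air and overlapped between the sexes under smoke. The summed normalised counts of 11 ciliated cell genes were 13146 to 26221 in female air against 4377 to 8139 in male air, and 126 to 13812 in female smoke against 360 to 5468 in male smoke. Of the 11 genes 2 were called higher in female than in male air, where 20% of tested genes were called higher. With the 2 length-trend libraries left out 10 were called higher, where 28.3% of tested genes were. All 11 were called lower in female smoke, with a median log2 fold change of -2.87 (limma), where 19.3% of tested genes were called lower. In male smoke their median was -1.18 and 0 were called, where 12.2% of tested genes were called lower. With the 2 length-trend libraries left out the female median was -1.59, with 11 still called lower, and 5 were called lower in male smoke. In that fit 23.8% of tested genes were called lower in female smoke and 24.8% in male smoke. The list of 8 airway epithelial markers went both ways between female and male cultures, with 2 called higher and 2 lower in air and 3 and 3 in smoke (limma). One gene of that list, the basal cell keratin Krt5, was higher in female than in male cultures by 0.77 ± 0.19 in air and 1.18 ± 0.19 in smoke (limma, adjusted p = 0.00274 and 4.08e-05). Krt5 was not named by the rule set for the related lists, and other genes of its list were called lower. Its value alone does not give the share of basal cells. The part of cell composition in the levels of Cat, Osgin1 and Sqstm1 was not tested.

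Ratios of the genes within a library did not rest on the scaling between libraries. Per kilobase, Osgin1 over Cat had a lowest, median and highest value of 0.518, 0.564 and 0.851 in female smoke and 0.464, 0.543 and 1.22 in female air, against 1.45, 2.03 and 2.26 in male smoke and 1.74, 1.85 and 2.25 in male air. All 12 female libraries had less Osgin1 relative to Cat than all 12 male libraries. Sqstm1 over Cat had medians of 3.09 in female smoke, 2.26 in female air, 9.85 in male smoke and 7.45 in male air. Sod2 over Sod1 differed little, with medians of 0.125, 0.120, 0.100 and 0.117 in the same groups.

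Over the 24 libraries, as a description, log2 levels of Osgin1 and Sqstm1 went together, with Pearson r = 0.75, and Cat ran against both, with r = -0.70 for Osgin1 and -0.65 for Sqstm1. The libraries share their groups and preparations, so these values hold the female and male difference in them. Among genes with a mean of at least 50, the 3 most like Sqstm1 over the 24 libraries were Hmox1, at r = 0.94, Pvr at 0.94 and Ifrd1 at 0.93, and over the 22 libraries without a length trend Ifrd1 came first, at 0.97. For Osgin1 they were Slc22a4, Trpv4 and Chka, each at 0.91, and for Cat Rap2a at 0.92, Pkp1 at 0.91 and Plcb3 at 0.90. Those of Sod1, Mrpl58, Syf2 and Rabac1, went from 0.96, 0.96 and 0.95 over 24 libraries to 0.76, 0.74 and 0.66 over the 22 without a length trend. For Sod2 they were Msra and G6pc3, at 0.91 and 0.90, and Higd2a at 0.89, and for Sod3, at few reads, Dact2, Kif26b and Gne, each at 0.74.

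The 6 genes stand among others of the same chemistry, which were read as lists, each also without the 2 libraries with a length trend, an alternative chosen after the data were seen. In that fit 22% of tested genes were called higher and 23.8% lower in female smoke, and 22.6% and 24.8% in male smoke. Of 14 genes for NRF2 and its inducible targets, 9 rose and 0 fell in female smoke and 3 rose and 0 fell in male smoke, with median log2 fold changes of 0.50 in each, where the median of all tested genes was -0.00264 in female and -0.00576 in male smoke. Of all tested genes 15.5% were called higher in female smoke and 9.76% in male smoke. The same 9 genes rose in female smoke without the 2 libraries, and in male smoke 8 rose and 1 fell. Hmox1, the inducible heme oxygenase, rose by 0.91 ± 0.35 in female and 1.04 ± 0.35 in male smoke (limma, adjusted p = 0.0443 and 0.0338). Fth1, the ferritin heavy chain, rose by 1.41 ± 0.31 in female smoke (adjusted p = 0.0018) and read 0.54 ± 0.31 in male smoke (adjusted p = 0.229, limma). Nqo1, a quinone reductase, rose by 1.16 ± 0.33 in female smoke (adjusted p = 0.00919) and read 0.89 ± 0.33 in male smoke (adjusted p = 0.0568, limma), and Slc7a11, the cystine importer, rose by 1.19 ± 0.42 in male smoke (adjusted p = 0.0455) and read 0.65 ± 0.42 in female smoke (adjusted p = 0.244, limma).

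Genes that make superoxide or hydrogen peroxide included the largest fold changes in female smoke of the 7 lists read here. Of 14 genes 11 were tested, and 4 rose and 2 fell in female smoke, while 4 rose and 1 fell in male smoke, and 5 rose and 1 fell there without the 2 libraries. Duox2, an epithelial oxidase that releases hydrogen peroxide, had a lowest, median and highest normalised count of 315, 970 and 2961 in female smoke against 9.13, 35.3 and 92.6 in female air, and of 25.4, 146 and 253 in male smoke against 11.8, 25.1 and 51.1 in male air. It rose by 4.69 ± 0.62 in female and 1.97 ± 0.62 in male smoke (limma, adjusted p = 1.66e-05 and 0.0255). Its maturation factor Duoxa2 rose by 4.24 ± 0.60 and 1.86 ± 0.60 (limma, adjusted p = 3.49e-05 and 0.0295), and the GTPase gene Rac1 rose by 0.46 ± 0.13 and 0.62 ± 0.13 (adjusted p = 0.00818 and 0.00136). The difference in response between the sexes was not called for Duox2, at 2.72 ± 0.88 (limma, adjusted p = 0.146).

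The count for enzymes that remove peroxides depended on the libraries with a length trend. Of 12 peroxidase genes, glutathione peroxidases and peroxiredoxins, 0 rose and 1 fell in female smoke and 0 were called in male smoke (limma), with median log2 fold changes of -0.41 and -0.15. Female air insert 1 stood apart for the list, with a summed normalised count of 174160 against 43972 to 55162 in the other 5 female air libraries. Without the 2 libraries the female median was -0.19, and 1 gene rose and 3 fell in female smoke, while 4 fell in male smoke. The gene that then rose was Gpx2, the epithelial glutathione peroxidase, at 0.75 ± 0.17 (limma, adjusted p = 0.00191), named after its value was seen. The gene that fell over all libraries was Gpx3, the secreted glutathione peroxidase, at a log2 fold change of -1.27 ± 0.35 in female smoke (adjusted p = 0.00813, limma). It read -0.82 ± 0.35 in male smoke (adjusted p = 0.101), and Prdx6 read -0.50 ± 0.22 and -0.57 ± 0.22 (adjusted p = 0.0874 and 0.0686, limma). Gpx3 was also far lower in female than in male air, by a log2 fold change of -3.41 ± 0.35 (adjusted p = 5.71e-08, limma).

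Peroxisomes house much of the cell's catalase, and 20 genes of peroxisomal import and fatty acid oxidation were counted beside Cat. None rose, 5 fell in female smoke and 9 in male smoke (limma), where 19.3% and 12.2% of all tested genes were called lower. In the fit that leaves out the 2 libraries 1 rose and 8 fell in female smoke, and 2 rose and 12 fell in male smoke. Ehhadh, the peroxisomal bifunctional enzyme, fell in both sexes, with -0.68 ± 0.25 in female and -1.08 ± 0.25 in male smoke (adjusted p = 0.0378 and 0.00352). Pex7, an import receptor, fell at -0.58 ± 0.17 and -0.60 ± 0.17 (adjusted p = 0.0124 and 0.0159), while Abcd3 read 0.05 ± 0.12 and -0.26 ± 0.12 (adjusted p = 0.793 and 0.116, limma). Cat itself was not among the genes called, as given above.

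Genes listed for metal supply to the dismutases, which are not all metal carriers, moved both ways. Of 10 genes 3 rose and 2 fell in female smoke, and 1 rose and 2 fell in male smoke. The same 5 genes were called in female smoke without the 2 libraries, and 1 rose and 3 fell in male smoke. Atp7b, a copper pump, fell, at -3.36 ± 0.79 in female and -2.94 ± 0.79 in male smoke (limma, adjusted p = 0.00252 and 0.0101). The metal importer genes Slc39a14 and Slc39a8 moved in opposite directions. Slc39a14 rose by 0.83 ± 0.16 and 0.73 ± 0.16 (adjusted p = 0.00046 and 0.00197), and Slc39a8 fell at -0.51 ± 0.16 and -0.77 ± 0.16 (adjusted p = 0.0173 and 0.00155, limma). Mtch2, a mitochondrial outer membrane protein, read 0.08 ± 0.15 in each sex (adjusted p = 0.721 and 0.77, limma).

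Autophagy receptors and ATG8 proteins, the partners of SQSTM1, gave a mixed count. Of 22 genes 3 rose and 4 fell in female smoke, and 0 rose and 4 fell in male smoke (limma). These counts were 3 and 6 in female smoke and 1 and 7 in male smoke without the 2 libraries. Calcoco1, another receptor, fell, at -0.65 ± 0.20 in female and -1.13 ± 0.20 in male smoke (adjusted p = 0.0149 and 0.000372). The ATG8 family gene Gabarapl1 fell at -0.47 ± 0.13 and -0.53 ± 0.13 (adjusted p = 0.00569 and 0.00425), and Tfeb, a regulator of lysosome genes, at -0.47 ± 0.15 and -0.58 ± 0.15 (adjusted p = 0.0164 and 0.00714). Gabarap read -0.14 ± 0.18 and -0.03 ± 0.18 (adjusted p = 0.59 and 0.934, limma).

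NF-kappaB pathway genes were counted beside Sod2. Of 12 genes 11 were tested, and 5 rose and 0 fell in female smoke, while 0 rose and 1 fell in male smoke (limma). With the 2 libraries left out 4 rose in female smoke and 3 fell in male smoke. Tnfaip3, a feedback inhibitor, rose by 1.40 ± 0.34 in female smoke (adjusted p = 0.00306) and read 0.75 ± 0.34 in male smoke (adjusted p = 0.116, limma). Nfkbiz, an atypical member of the inhibitor family, rose by 1.30 ± 0.26 in female smoke (adjusted p = 0.000731) and read 0.62 ± 0.26 in male smoke (adjusted p = 0.0883), and Nfkbie, an inhibitor gene, fell at -0.77 ± 0.26 in male smoke (adjusted p = 0.0349, limma) and read -0.04 ± 0.26 in female smoke (adjusted p = 0.929). Sod2 was not called in either sex, as given above, and no gene of the 7 related lists was called in the comparison of the responses between the sexes. Leaving out the 2 length-trend libraries, 7 of 100 tested genes of these lists were called there, each with the higher response in female cultures, where 3.73% of all tested genes were called in that direction. Among them were Fth1 at 1.37 ± 0.22 and Gpx2 at 0.86 ± 0.24 (limma, adjusted p = 0.00156 and 0.0338), which were chosen after their values were seen.

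**Figure D5:**
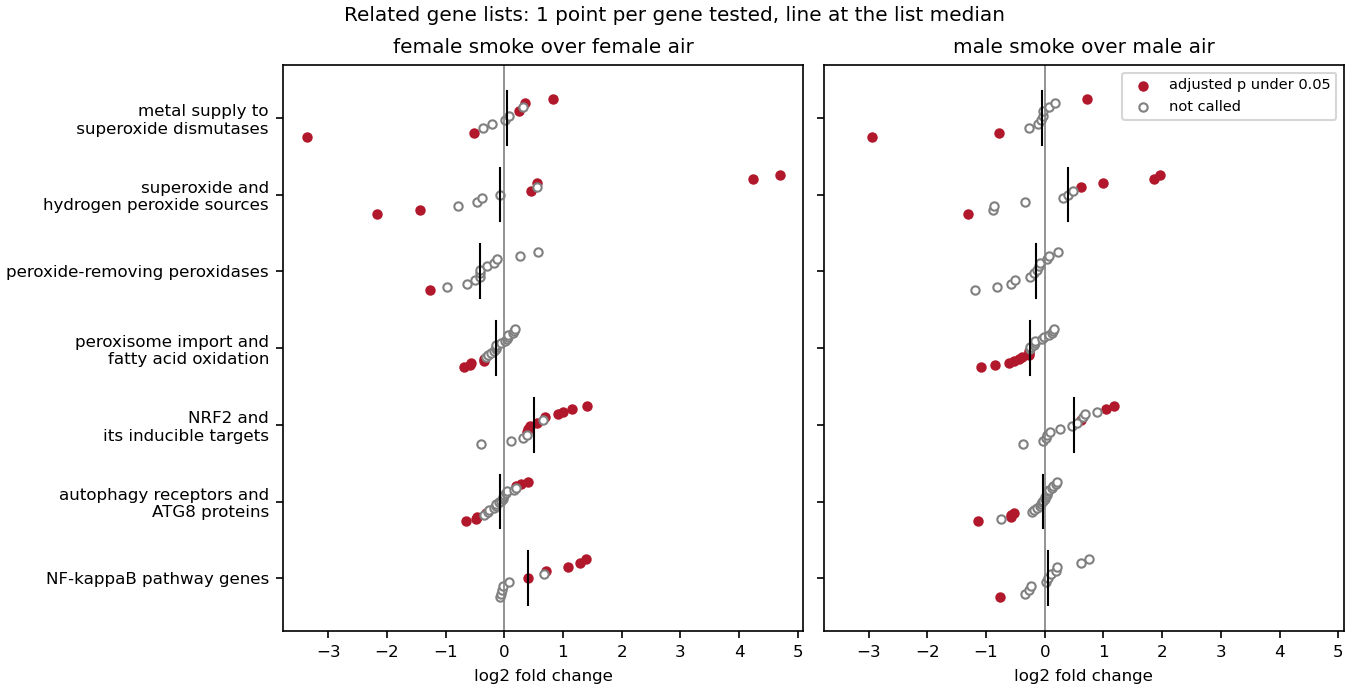
Log2 fold changes (horizontal axis) of the tested genes of 7 related lists (rows) in female smoke over air (left) and male smoke over air (right). Filled points have a limma adjusted p under 0.05 and lines are list medians. In the NRF2 list 9 of 14 genes are filled above 0 on the left and 3 on the right, and in the peroxisome list 5 and 9 of 20 are filled below 0.

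In the comparison of female with male air the related lists ran in different directions. Of the 14 NRF2 genes 2 were higher and 6 lower in female air, and of the 11 NF-kappaB genes tested 0 were higher and 6 lower. Hmox1, the gene closest to Sqstm1 in pattern over the 24 libraries, was lower in female air by a log2 fold change of -1.54 ± 0.35 (limma, adjusted p = 0.00115). Of the 11 oxidant source genes tested 7 were higher and 1 lower in female air, while the peroxisome list had 3 higher and 2 lower genes out of 20. Higher calls made up 20% and lower calls 19.0% of all tested genes in this comparison.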

How the data were processed

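Bulk RNA was sequenced from 24 inserts. The values are a signal, counts per gene that the authors normalised with DESeq2 before deposit. They were whole multiples of 1 step per library, within 0.001 reads, so reads were recovered for 23 libraries and not claimed for male smoke insert 5. Per the submitters' processing notes, FastQC 0.11.9, Trimmomatic 0.38.0, HTSeq and DESeq2 were used with builds GRCm38 and mm10. The sources used here do not give an aligner or the strandedness. The columns of the authors' deposited comparison tables, per the file headers, hold log2 fold changes, a Wald score, a p-value and an adjusted p-value. They run air over smoke and male over female, and their sign was turned here. Gene positions come from the refGene annotation the authors deposited.

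The test took the 13549 of 25239 genes whose mean normalised count reached 10, with limma 3.58.1 (R 4.3.3) on log2 of the count plus 1, eBayes with trend, 1 term per group over 24 libraries, 2-sided, Benjamini-Hochberg adjusted p under 0.05. Alternatives were TMM, library-total and quantile scaling, pseudocounts of 0.5 and 5, other filters, robust eBayes, array weights, the insert number as block, only the groups compared, inserts 1 to 3 or 4 to 6, the libraries with a length trend left out, each library left out, and edgeR 4.0.16 and DESeq2 1.42.0 on recovered reads. The fits were tested on simulated data. BLAST 2.17.0 compared transcripts, and motifs were searched in Python 3.11.15. All 6 genes were named whatever their values, with the 2 called genes of largest fold change per list and sex, the gene of highest mean count per list, and the 3 most similar in pattern; 1 gene that this rule names is not reported here. The members and lists were chosen with earlier results of these data known. The reads carry no molecular identifiers.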

Additional observations from a re-analysis of the deposited data

Results flagged for a closer look

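Of 24 combinations of gene and group, 5 held a library whose gap to its nearest neighbour was too large a share of the range of its 6 libraries by Dixon's test at 95%, which chance alone gives in about 1 of 20 groups. Female air insert 1 accounted for 3 of these, with Sod1 at 25766 normalised counts, Sod2 at 5369 and, as the lowest of its group, Cat at 2173. This library had the strongest length trend, at a Spearman correlation of -0.655. Sqstm1 in male smoke insert 3, at 39378 normalised counts, stood above the other 5 male smoke libraries, where Hmox1 also reached its highest value of 8397. Osgin1 in male air insert 4, at 3044 normalised counts, stood above a narrow group that began at 2775.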

How the results depend on the processing

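Over the alternatives of the fold changes of the 6 genes in 5 comparisons, 820 values kept direction and call, 13 became called, 6 lost their call and 62 changed sign. The values that lost a call did so with inserts 1 to 3 alone and are given in the report. Deviations of same-numbered smoke and air libraries had correlations of -0.206 to 0.367 in female and -0.242 to 0.124 in male cultures. In female cultures inserts 2 to 6 were above the mean correlation with the other air libraries, at 0.367 against -0.0403 for insert 2. Insert 1, with a length trend in air, was below it. In male cultures inserts 2 to 4 were above that mean and inserts 1, 5 and 6 below it. The main fit holds no pairing. As a replicate block the insert numbers left the counts of called genes as they were. These were 1, 0 and 0 for female smoke, male smoke and the difference in response. For female over male they were 4 in air and 3 in smoke. Library-total scaling shifted the median of all genes to -0.115 and -0.150 in the last 2 comparisons. DESeq2 gave Sod1 no adjusted p. Sod3 rests on at most 16 reads per library.

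Counts of called genes changed as follows. In female smoke the count was 3 with array weights, 0 with inserts 1 to 3 and 2 with edgeR. In male smoke it was 3 with array weights and 1 with the groups compared alone, without the 2 libraries with a length trend, and with inserts 1 to 3. For the difference in response it was 1 with a pseudocount of 5 and 2 with array weights. Between the sexes it was 1 in air and 1 in smoke with inserts 1 to 3, and 6 in air with array weights, which added Sod1 and Sod2. The cause was not tested.

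Sign changes concerned values that are not called in the report. In female smoke, inserts 1 to 3 gave 0.12 for Cat and -0.15 for Osgin1, and inserts 4 to 6 gave 0.0096 for Sod1 and 0.036 for Sod2. In male smoke, inserts 1 to 3 gave 0.20 for Cat and 0.21 for Osgin1, and inserts 4 to 6 gave 0.0061 for Sod2 and -0.059 for Sod3, while Cat and Osgin1 read 0.067 and 0.023 with edgeR and 0.066 and 0.022 with DESeq2. For the difference in response, array weights gave 0.075 for Sod1 and 0.29 for Sqstm1, leaving out the 2 libraries with a length trend gave -0.033 for Cat and 0.090 for Sqstm1, inserts 1 to 3 gave -0.077 for Cat and -0.37 for Osgin1, inserts 4 to 6 gave 0.32 for Sod1 and 0.018 for Sqstm1, edgeR gave -0.11 for Cat and -0.0072 for Osgin1, and DESeq2 gave -0.089 for Cat. For female over male air, array weights gave -0.33 for Sod1, leaving out the 2 libraries gave -0.25 for Sod1, inserts 1 to 3 gave 0.24 for Sod2, inserts 4 to 6 gave -0.33 for Sod1, and edgeR and DESeq2 gave 0.092 and 0.078 for Sod2. For female over male smoke, Sod2 read -0.021 with library-total scaling, -0.12 with array weights and -0.22 with inserts 4 to 6.

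With 1 library left out at a time, no call changed and these values changed sign. In female smoke Cat ran from -0.12 to 0.032 and Osgin1 from -0.012 to 0.14, and in male smoke Cat ran from -0.16 to 0.036, Osgin1 from -0.17 to 0.021 and Sod3 from -0.21 to 0.33. For the difference in response Sod1 ran from -0.55 to 0.091, Cat from -0.051 to 0.15 and Sqstm1 from -0.21 to 0.22. For female over male air Sod1 ran from -0.25 to 0.39 and Sod2 from -0.19 to 0.067.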
